A study of Mus musculus with 9 samples.

Results

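The genes described here are 10 markers of osteoclasts and of macrophage fusion: Dcstamp, Ocstamp, Tnfrsf11a, Nfatc1, Oscar, Ctsk, Acp5, Atp6v0d2, Mmp9 and Calcr. They were taken by symbol from a table of 24607 mouse genes as known markers, by a rule that uses no level or test. The set was nevertheless chosen with earlier results of these data known. The libraries came from macrophages grown from bone marrow, sorted on CD11b and CD64 and sequenced as 3 groups of 3. The groups were macrophages in monoculture, macrophages in co-culture with DRG neurons (sensory neurons, from dorsal root ganglia), and macrophages given TGF-β (TGF-b in the labels) at 0.02 ng/ml. All groups carried the CX3CR1-gfp/+ genotype, in which green fluorescent protein replaces 1 copy of the fractalkine receptor gene, and all were differentiated with 50 ng/ml of the growth factor M-CSF. Each is labeled with a time of 5 days, and the design text names 3 mice as the source. Which mouse gave which library, and the age and sex of the mice, are not stated. The labels name M-CSF and no RANKL, the cytokine that drives osteoclast formation.

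Osteoclasts are the bone-resorbing giant cells of the macrophage lineage. M-CSF keeps their precursors alive, and RANKL binding its receptor RANK (gene Tnfrsf11a) induces the transcription factor NFATc1, which switches on the genes of fusion and resorption. The membrane proteins DC-STAMP and OC-STAMP are needed for precursors to fuse. Cathepsin K digests collagen in the acid pocket under the cell, which a proton pump with the subunit encoded by Atp6v0d2 acidifies, and tartrate-resistant acid phosphatase (gene Acp5) is the classical histochemical stain of the cell. Macrophages express part of this set without becoming osteoclasts.

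Depth ran from 46.8 to 308.8 M reads (M, 1e6) per library, and levels are normalized counts, that is, reads divided by a library's size factor, where 1 read was worth 0.346 to 2.27. Markers of macrophages were high in every library (9 of 9 genes, summed 973760 to 1609210). Fibroblast and stromal markers (12 genes) summed to 34.9 to 113.7 in monoculture, 24.05 to 107.1 with TGF-β and 7079 to 10192 in co-culture, where each of the 12 had reads in at least 1 library (Lum was at 0 in part of them). In these bulk libraries fewer cells of a type and less RNA per cell cannot be told apart. Labels do not say that libraries of a group came from separate cultures, so p-values measure the spread between these libraries.

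Of the 10 genes, 8 had a normalized count of at least 10 in at least 3 libraries and were tested. In co-culture all 8 tested genes differed from monoculture, 5 lower and 3 higher, where 30.8% of the 16328 tested genes were called (15.0% lower and 15.9% higher). With TGF-β 2 of the 8 were lower and none was higher, where 2.52% of all genes were called (1.39% lower and 1.13% higher). None was higher at an unadjusted p under 0.05 either, or in edgeR or DESeq2. Between co-culture and TGF-β 3 of the 8 were higher in co-culture and 3 lower, where 25.3% of all genes were called (13.4% higher and 11.9% lower). A call is an adjusted p under 0.05 in limma (Benjamini-Hochberg over all tested genes), and fold changes are log2 ± SE on log2(value + 10). The groups did not overlap for 8 of 8 genes in co-culture against monoculture (45.0% of all genes), for 5 of 8 with TGF-β against monoculture (16.9%) and for 7 of 8 in co-culture against TGF-β (41.0%). The co-culture counts include Ocstamp, which passed the filter through co-culture alone, so its part in them is in part set by the filter. With a filter at 50 Ocstamp was not tested, and co-culture had 5 lower and 2 higher genes against monoculture. Against TGF-β it then had 3 lower and 2 higher. The comparisons share libraries, so each gene's values are given side by side. The 2 genes not tested, Oscar and Calcr, were at or near 0 reads in every group.

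**Figure D1:**
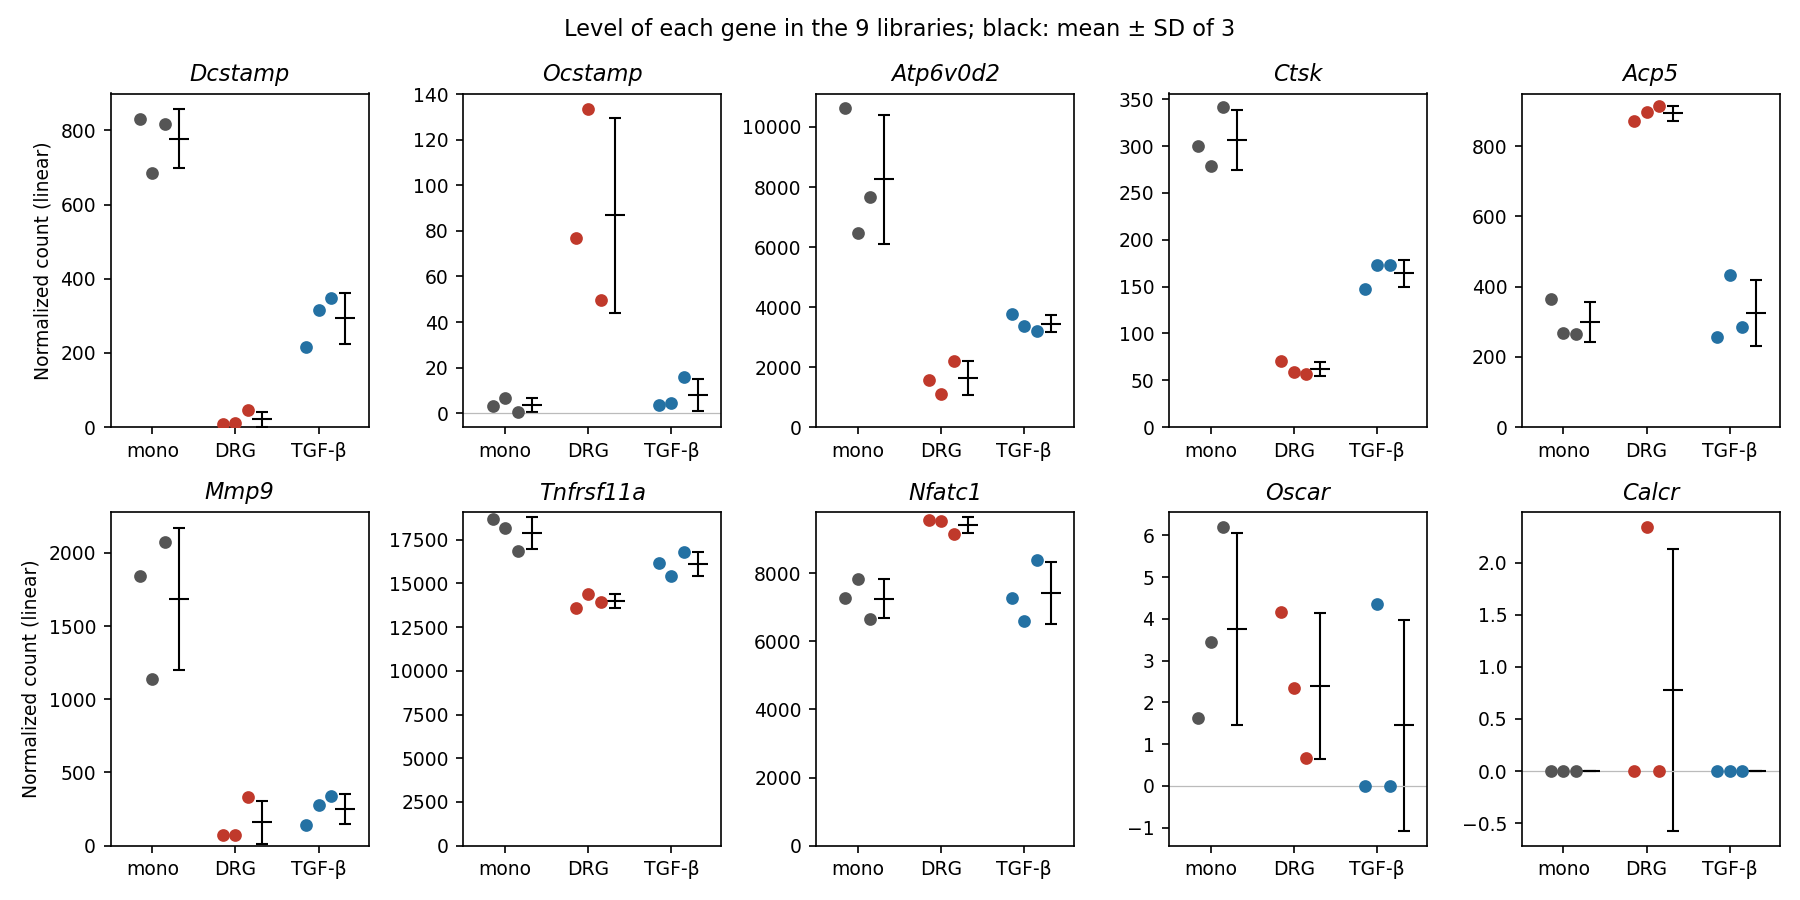
Normalized count (linear axes that include 0, with a grey line at 0 where an SD bar or margin runs below it) of each of the 10 genes in the 9 libraries, 1 point per library, with the mean ± SD of 3 in black; mono is monoculture and DRG is co-culture. Dcstamp, Ctsk and Atp6v0d2 step down from monoculture through TGF-β to co-culture, whereas Acp5 and Ocstamp are highest in the 3 co-culture libraries.

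The 2 fusion proteins moved in opposite directions in co-culture. Dcstamp, which encodes the fusion protein DC-STAMP of osteoclasts and giant cells, had 829.7, 686.1 and 815.9 normalized counts in monoculture, 7.62, 10.2 and 45.2 in co-culture and 214.9, 316.9 and 347.7 with TGF-β. The 3 groups did not overlap, and co-culture 3 was well above its 2 fellows. Dcstamp fell by 4.86 ± 0.36 in co-culture (limma adjusted p = 4.33e-07). The mean went from 777 ± 79.3 to 21.0 ± 21.0 (n = 3 each), or to 8.89 without co-culture 3, when the fold change was -5.38. With a pseudocount of 1 in place of 10 it was -5.56. With TGF-β the mean was 293 ± 69.5 and the difference of -1.40 ± 0.36 did not pass (limma adjusted p = 0.0700). It passed without co-culture 3, which supplies part of the shared spread (0.00257), but stayed uncalled under 14 of 18 alternative settings. The adjusted p was 0.216 in edgeR, 0.195 in DESeq2 and at most 0.261. The level in co-culture was below that with TGF-β (-3.46 ± 0.36, limma adjusted p = 1.49e-05).

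Ocstamp encodes OC-STAMP, a related membrane protein that osteoclast precursors also need for fusion. It had 3.25, 6.91 and 0.775 normalized counts in monoculture, from 2, 6 and 1 reads. In co-culture it had 76.9, 133.6 and 49.8, from 222, 171 and 75 reads, and with TGF-β 3.76, 4.37 and 15.9, from 5, 2 and 7 reads. Every co-culture library lay above all others, and monoculture and TGF-β overlapped. Ocstamp rose by 2.76 ± 0.39 against monoculture (limma adjusted p = 7.44e-05) and was higher than with TGF-β by 2.40 ± 0.39 (limma adjusted p = 3.61e-04). It was tested because co-culture was high, so that it differed is in part set by the filter. The size depends on the added constant, since a pseudocount of 1 or a count test gave up to 4.65 against monoculture. TGF-β against monoculture gave 0.36 ± 0.39 (limma adjusted p = 0.742). Even in co-culture the gene stayed low, at 23.7 normalized counts per kb of its longest transcript, a level above the 10.5 per kb of Dcstamp there. In monoculture the levels were 0.996 per kb for Ocstamp and 389 per kb for Dcstamp.

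The ratio of the reads of these genes within a library does not depend on how libraries were scaled. Monoculture had 0.391, 1.01 and 0.0950 Ocstamp reads per 100 Dcstamp reads, TGF-β had 1.75, 1.38 and 4.58, and co-culture had 1009, 1315 and 110.3. The 3 groups were apart, and the lowest co-culture library was again co-culture 3. The fibroblast and stromal markers listed above were higher in the same co-culture libraries, and their part in the rise of Ocstamp was not tested.

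**Figure D2:**
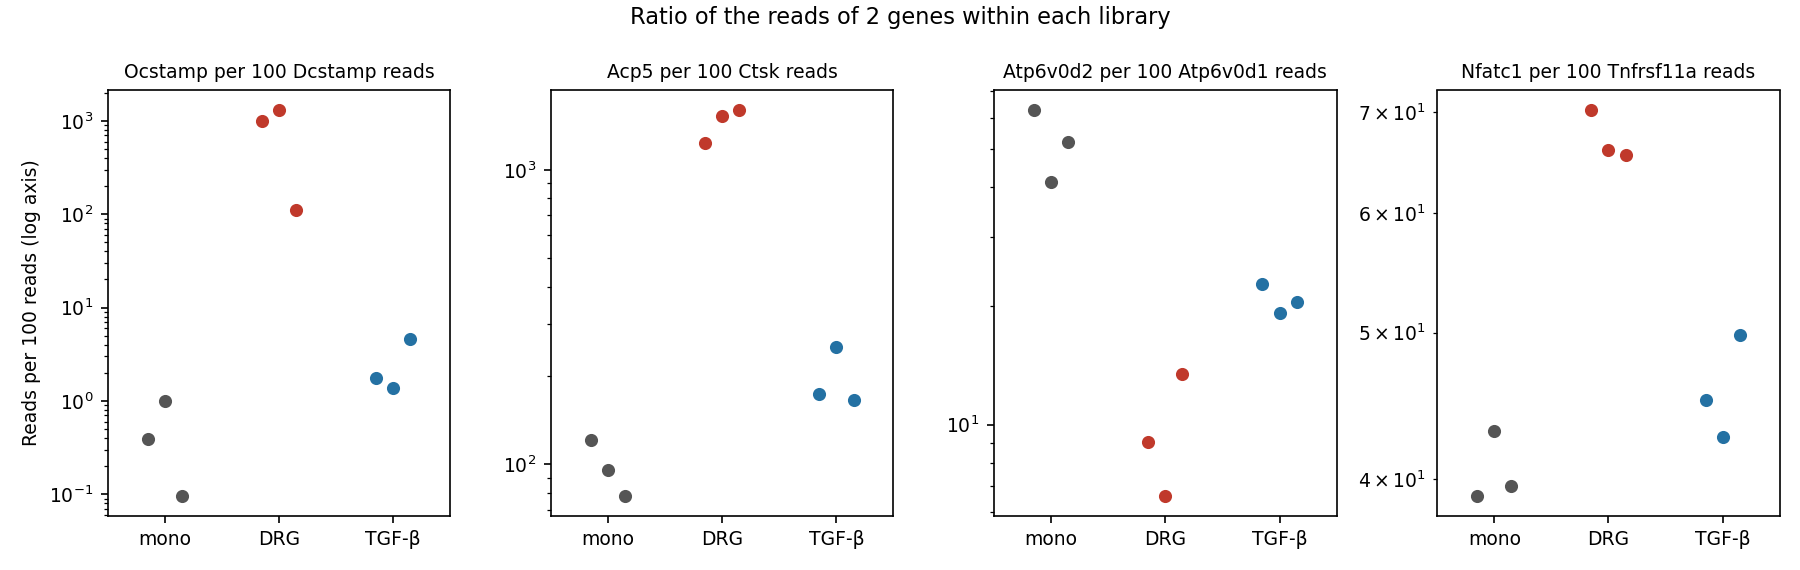
Reads of a gene per 100 reads of another gene in the same library (log axes), 1 point per library, for Ocstamp over Dcstamp, Acp5 over Ctsk, Atp6v0d2 over its paralog Atp6v0d1 and Nfatc1 over Tnfrsf11a; mono is monoculture and DRG is co-culture. Co-culture stands apart from both other groups in all 4 ratios, with 110.3 to 1315 Ocstamp reads per 100 Dcstamp reads against at most 4.58 elsewhere.

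The receptor and the transcription factor at the head of the pathway changed little in size. Tnfrsf11a, which encodes the RANKL receptor RANK, had 18663, 18149 and 16847 normalized counts in monoculture, 13616, 14405 and 13956 in co-culture and 16142, 15445 and 16814 with TGF-β. The co-culture libraries lay below all others, and the TGF-β libraries just below monoculture with no overlap. Tnfrsf11a fell by 0.35 ± 0.08 in co-culture (limma adjusted p = 0.00244), a mean level 21.8% lower. The TGF-β difference was -0.15 ± 0.08 (limma adjusted p = 0.394) and that between co-culture and TGF-β -0.20 ± 0.08 (limma adjusted p = 0.0647, or 0.0304 with DESeq2). The last was uncalled under 17 of 18 alternative settings. Per kb of the longest transcript Tnfrsf11a had the highest mean level of the 10 genes in each group, 3558 in monoculture, 2783 in co-culture and 3209 with TGF-β.

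Nfatc1, which encodes the factor that RANK signaling induces, had 7269, 7816 and 6665 normalized counts in monoculture and 7281, 6591 and 8372 with TGF-β, which overlapped. In co-culture it had 9564, 9512 and 9148, above all other libraries. Nfatc1 rose by 0.38 ± 0.09 against monoculture (limma adjusted p = 0.00681) and was higher than with TGF-β by 0.35 ± 0.09 (limma adjusted p = 0.0138). The last call held under 13 of 18 alternative settings. It was lost without co-culture 1 or 2 or TGF-β 1 or 2 (limma adjusted p 0.0503 to 0.0650). In limma without its trend and robust options it was also lost (adjusted p = 0.0544). TGF-β against monoculture gave 0.03 ± 0.09 (limma adjusted p = 0.938). Within libraries Nfatc1 had 39.0 to 43.1 reads per 100 Tnfrsf11a reads in monoculture, 42.7 to 49.8 with TGF-β and 65.5 to 70.2 in co-culture. In co-culture the receptor was thus lower and the factor higher.

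Oscar encodes an immunoglobulin-like receptor that gives osteoclasts costimulation when it meets collagen. It had 1, 3 and 8 reads in monoculture, 12, 3 and 1 in co-culture and 0, 2 and 0 with TGF-β. The highest library, monoculture 3, had 6.20 normalized counts and the groups overlapped, so no difference was detectable at this depth. Calcr, the calcitonin receptor of mature osteoclasts, had 3 reads in co-culture 2 and 0 in the 8 other libraries. A count of 0 allows up to 3 reads (95% confidence, counting error only), or 1.04 to 6.82 normalized counts depending on the library.

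The resorption enzymes did not move together. Ctsk, the gene of the collagen-degrading protease cathepsin K, had 300.4, 278.6 and 341.7 normalized counts in monoculture, 147.3, 172.6 and 172.7 with TGF-β and 70.7, 58.6 and 57.1 in co-culture. The groups formed 3 separate steps. Ctsk fell by 2.14 ± 0.20 in co-culture (limma adjusted p = 1.58e-06) and by 0.86 ± 0.20 with TGF-β (limma adjusted p = 0.0383), and co-culture was lower than TGF-β (-1.27 ± 0.20, limma adjusted p = 2.92e-04). The TGF-β call was narrow and held under 9 of 18 alternative settings, with adjusted p of 0.00101 to 0.175 and fold changes of -0.93 to -0.78. It was lost without any single library except co-culture 3 or TGF-β 3. Fibroblasts can also express Ctsk, and the part of the higher fibroblast and stromal markers of co-culture in the Ctsk level was not tested.

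Acp5, which encodes tartrate-resistant acid phosphatase, moved the other way. It had 363.7, 267.1 and 265.8 normalized counts in monoculture, 255.5, 432.7 and 286.3 with TGF-β and 871.8, 896.3 and 914.3 in co-culture. The first 2 groups overlapped and co-culture lay above them with little spread. Acp5 rose by 1.56 ± 0.19 against monoculture (limma adjusted p = 2.28e-05), a mean 2.99 times as high, and was above TGF-β by 1.47 ± 0.19 (limma adjusted p = 6.07e-05). TGF-β against monoculture gave 0.10 ± 0.19 (limma adjusted p = 0.887). There were 77.8 to 121.1 Acp5 reads per 100 Ctsk reads in monoculture, 165.8 to 250.6 with TGF-β and 1233 to 1600 in co-culture. An antisense gene, 6530413G14Rik, overlaps Acp5 and was not analysed here. The use of strand in counting is not given in the sources used here, so its reads cannot be told from those of Acp5. The part of the higher fibroblast and stromal markers in the rise of Acp5 was not tested.

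The start regions of these oppositely moving genes are shown because both are textbook targets of NFATc1 and its partner MITF. Start windows from RefSeq (GRCm38.p6, the assembly of mm10) were used for 5 of the 10 genes, Ctsk, Acp5, Tnfrsf11a, Oscar and Calcr, and those of Dcstamp, Ocstamp, Atp6v0d2, Nfatc1 and Mmp9 were not analysed here. The 250 bases before each start were searched on both strands for TGANTCA (AP-1), TCANGTG (MITF), GAGGAAGT (PU.1) and TGGAAA (NFAT). Capitals mark matches. Acp5 has 3 listed starts, and only the third, inside the gene, had any match. That start is the one shown, so the 2 windows printed are not a contrast between the genes. It is shown without the 10 bases next to the start, which are annotated as exon. Sequences run 5′ to 3′ on the gene's strand, from chr3:95498960-95499209 (plus strand) and chr9:22130609-22130848 (minus strand).
Ctsk: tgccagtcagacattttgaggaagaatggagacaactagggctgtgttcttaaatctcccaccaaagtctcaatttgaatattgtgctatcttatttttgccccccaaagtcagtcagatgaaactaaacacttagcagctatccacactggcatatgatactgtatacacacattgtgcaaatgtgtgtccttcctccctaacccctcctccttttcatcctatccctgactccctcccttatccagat
Acp5: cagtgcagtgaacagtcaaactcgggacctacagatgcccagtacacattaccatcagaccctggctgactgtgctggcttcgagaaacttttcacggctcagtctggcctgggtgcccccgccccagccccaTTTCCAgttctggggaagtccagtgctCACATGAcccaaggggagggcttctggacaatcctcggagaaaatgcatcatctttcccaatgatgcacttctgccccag
The Ctsk window held none of the 4 motifs, nor did those of Tnfrsf11a, the other 2 Acp5 starts and the first of 2 Calcr starts. The third Acp5 start had an NFAT match beginning 117 bases before it and a MITF match beginning 90 bases before it, both on the opposite strand and not overlapping. Matches were also found in genes at or near 0 reads, in Oscar a MITF match at 39 bases and 2 NFAT matches, and at the second Calcr start a MITF match at 115. Among 32851 RefSeq start windows of the same length 18.6% held the NFAT letters, 12.2% the MITF letters, 6.75% the AP-1 letters and 2.44% the PU.1 letters. A match describes the sequence and is not a binding site, and the table does not say which start was used.

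Atp6v0d2, the d2 subunit of the proton pump, which is also needed for fusion, was the most abundant of the fusion and resorption members. It had 10637, 6454 and 7679 normalized counts in monoculture, 3763, 3380 and 3211 with TGF-β and 1564, 1115 and 2221 in co-culture. The 3 groups did not overlap, and monoculture spread the widest. Atp6v0d2 fell by 2.36 ± 0.25 in co-culture (limma adjusted p = 1.12e-04) and by 1.23 ± 0.25 with TGF-β (limma adjusted p = 0.0471), and co-culture was below TGF-β (-1.13 ± 0.25, limma adjusted p = 0.0112). The TGF-β call held under 10 of 18 alternatives, with adjusted p of 0.0529 in edgeR on reads, and was lost without monoculture 1 or 3, co-culture 1 or any TGF-β library. Without co-culture 1 the difference between co-culture and TGF-β had an adjusted p of 0.0543. Against Atp6v0d1, the paralog that most cells use, there were 41.3 to 62.9 Atp6v0d2 reads per 100 in monoculture, 19.2 to 22.7 with TGF-β and 6.58 to 13.4 in co-culture.

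Mmp9, which encodes the secreted gelatinase of osteoclasts, macrophages and neutrophils, had 1841, 1138 and 2074 normalized counts in monoculture. It had 139.8, 279.7 and 336.3 with TGF-β and 75.9, 69.5 and 331.6 in co-culture, where co-culture 3 reached the TGF-β range. Monoculture lay above all 6 other libraries, and these 6 overlapped. Mmp9 fell by 3.63 ± 0.59 in co-culture (limma adjusted p = 0.00202), from a mean of 1684 ± 486.9 to 159 ± 149 (n = 3 each), or to 72.7 without co-culture 3, when the fold change was -4.31. With TGF-β the mean was 252 ± 101.2 and the difference, -2.73 ± 0.59, did not pass (limma adjusted p = 0.0619). It passed with DESeq2 on reads (0.00272) and without co-culture 3 (9.25e-04), but stayed uncalled under 12 of 18 alternatives. The adjusted p was 0.122 in edgeR and at most 0.182. Co-culture against TGF-β gave -0.90 ± 0.59 (limma adjusted p = 0.333), and -1.58 without co-culture 3 (0.00842). This difference was uncalled under 17 of 18 alternatives. Neutrophil markers (12 genes) summed to 1264 to 1734 in monoculture, 1132 to 1650 with TGF-β and 1037 to 1399 in co-culture. Nearly all of that was Mmp8, and S100a8 had at most 47.8 normalized counts in any library.

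**Figure D3:**
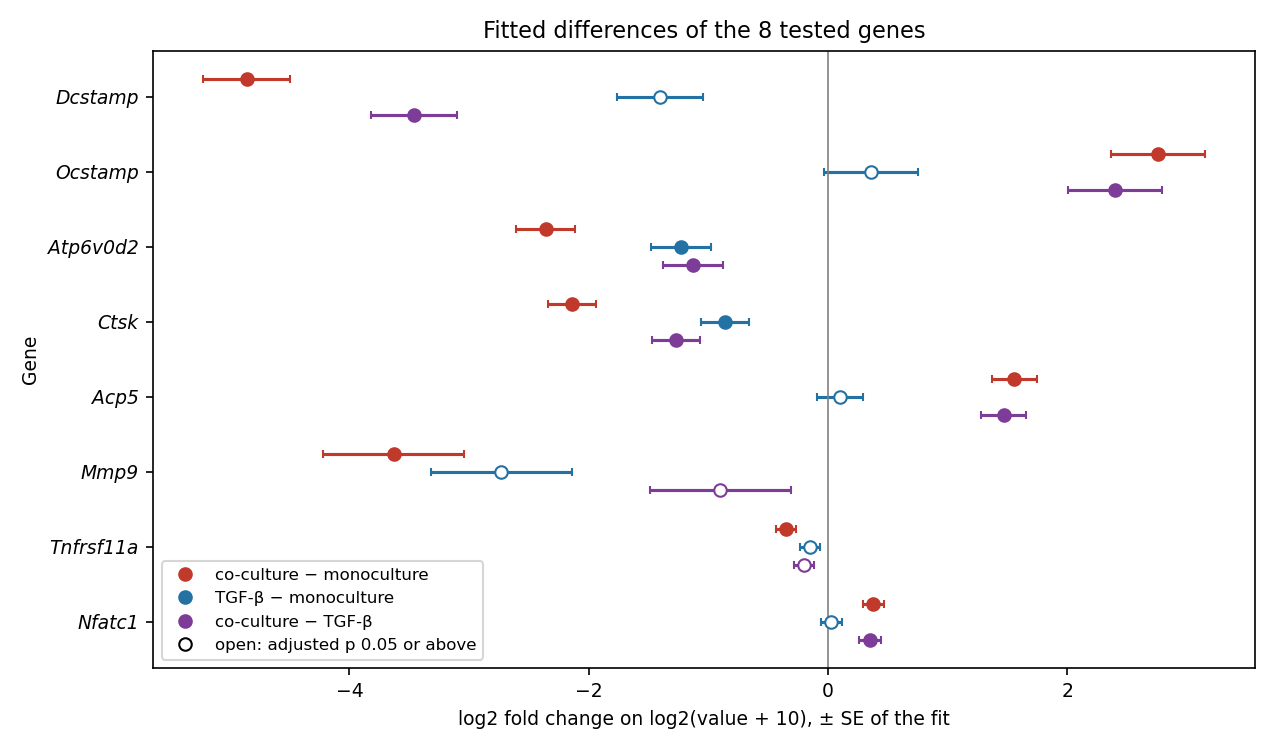
Log2 fold change ± SE of the fit, on log2(value + 10), for the 8 tested genes (rows) in the 3 comparisons; filled points have an adjusted p under 0.05 and open points do not. Co-culture against monoculture runs from -4.86 for Dcstamp to 2.76 for Ocstamp. The points of TGF-β against monoculture lie nearer 0 than those of co-culture against monoculture for all 8 genes.

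By their calls the tested genes divide into those lower and those higher in co-culture, so correlations over the 9 libraries follow that division. Ctsk, Dcstamp, Atp6v0d2, Mmp9 and Tnfrsf11a correlated with each other at Pearson's r of 0.795 to 0.956 on the log2 scale. For Acp5, Ocstamp and Nfatc1 r was 0.761 to 0.934. Both are descriptions that the difference between the groups dominates. Over the 6 libraries without co-culture r was 0.698 to 0.997 among the genes lower in co-culture. Among the 3 higher genes it was -0.424 to 0.862, with Ocstamp at few reads there. Outside the set, the genes most like Tnfrsf11a over the 9 libraries were Pkp4 (a junction plaque protein, r = 0.990) and Gm5884 (0.984). Those most like Nfatc1 were Notch1, the receptor (0.975), and the microRNA gene Mir1955 (0.974, at a mean of 2.75 to 13.2), and those most like Atp6v0d2 were Dpy19l3 (0.987) and Nabp1 (0.983).

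By position in mm10 (GENCODE M21) the genes lie on 9 chromosomes. Dcstamp (ENSMUSG00000022303) is on chromosome 15 from 39745930 to 39760938 on the plus strand, and Ctsk (ENSMUSG00000028111) on chromosome 3 from 95499256 to 95509362 on the plus strand. Acp5 (ENSMUSG00000001348) is on chromosome 9 from 22126727 to 22135711 on the minus strand. Atp6v0d2 (ENSMUSG00000028238) is on chromosome 4 from 19876841 to 19922605 on the minus strand. Mmp9 (ENSMUSG00000017737), from 164940780 to 164955850 on the plus strand, and Ocstamp (ENSMUSG00000027670), from 165393760 to 165400405 on the minus strand, lie on the same chromosome, 2. Tnfrsf11a (ENSMUSG00000026321) is on chromosome 1 from 105780718 to 105847981 on the plus strand, and Nfatc1 (ENSMUSG00000033016) on chromosome 18 from 80606205 to 80713071 on the minus strand, where the opposite-strand gene AC123818.1, not analysed here, overlaps it. Oscar (ENSMUSG00000054594) is on chromosome 7 from 3609813 to 3616157 and Calcr (ENSMUSG00000023964) on chromosome 6 from 3685680 to 3764714, both on the minus strand. Mmp9 and Ocstamp moved in opposite directions in co-culture, by -3.63 and 2.76.

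A further 150 genes that act in osteoclasts or in fusion, in 7 lists, showed where the rest of the pathway stood. In co-culture 36 of the 142 tested were higher and 53 lower (62.7% called, median log2 fold change -0.10, against 30.8% and 0.03 over all tested genes). With TGF-β 3 were higher and 8 lower (7.75%, median -0.08, against 2.52% and -0.01). Between co-culture and TGF-β 36 were higher in co-culture and 40 lower (53.5%, median -0.01, against 25.3% and 0.01). The counts of each list below stand beside 15.9% of all tested genes higher and 15.0% lower in co-culture against monoculture. These shares were 1.13% and 1.39% with TGF-β, and 13.4% and 11.9% in co-culture against TGF-β. Of the 142, 136 passed the filter on the other libraries, and the 6 others were tested through co-culture alone.

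Fusion genes were the list most often lower in co-culture, with 15 of 24 lower and 2 higher (median -0.51), where 15.0% of all tested genes were lower and 15.9% higher. Vcl, the adhesion protein vinculin, fell by 1.59 ± 0.09 (limma adjusted p = 1.29e-08). Adam12, a metalloprotease of fusing muscle and giant cells, was called higher, from a mean of 0.800 normalized counts in monoculture to 104.7, and was tested through co-culture alone. The part of the higher fibroblast and stromal markers in the rise of Adam12 was not tested. With TGF-β Vcl fell by 0.80 ± 0.09 (limma adjusted p = 3.47e-04) and the chemokine receptor Ccr2 rose by 1.53 ± 0.20 (0.00102), the only 2 of the 24 called. Against TGF-β co-culture was lower in 11 and higher in 3, led by the scavenger receptor Cd36 (-2.71 ± 0.16, limma adjusted p = 1.14e-07) and Adam12, which had a mean of 2.24 with TGF-β.

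Of 28 genes of resorption and acid secretion 11 were lower in co-culture and 5 higher (median -0.11). Atp6v1b2, another proton pump subunit, fell by 0.98 ± 0.08 (limma adjusted p = 4.80e-07) and by 0.44 ± 0.08 with TGF-β (0.0106). The TGF-β call held under 15 of 18 alternatives (adjusted p up to 0.0753) and was lost without monoculture 2, without TGF-β 1 and in limma without its trend and robust options. The membrane collagenase Mmp14 rose by 8.09 ± 0.14 in co-culture (limma adjusted p = 7.59e-14) and by 1.99 ± 0.14 with TGF-β (6.80e-06). The 2 genes of the list called lower with TGF-β were both pump subunits, Atp6v1b2 and Atp6v0a1 (-0.48 ± 0.09), the latter named after its values were seen. The balance of the metalloproteinases shifted, from 1150 to 2676 Mmp9 reads per 100 Mmp14 reads in monoculture to 38.4 to 93.1 with TGF-β and 0.214 to 1.32 in co-culture. Fibroblasts express Mmp14 as well, and the part of their markers in this was not tested. Between co-culture and TGF-β 4 were higher and 9 lower, with Mmp14 at 6.11 ± 0.14 and the creatine kinase Ckb at -1.12 ± 0.11 (limma adjusted p = 4.03e-06).

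Transcription factors that promote osteoclasts split evenly, 7 of 21 higher and 7 lower in co-culture (median -0.08). Pparg, the lipid-sensing nuclear receptor, fell by 2.57 ± 0.13 (limma adjusted p = 4.92e-09) and Prdm1, which represses inhibitors of osteoclasts, rose by 1.21 ± 0.16 (3.78e-05). With TGF-β the AP-1 member Fosl1 was the 1 gene called, lower by -1.22 ± 0.30 (limma adjusted p = 0.0486). That call was lost under 11 of 18 alternatives (adjusted p up to 0.210), among them edgeR, a pseudocount of 1 and leaving out any library except co-culture 2, co-culture 3 or TGF-β 2. Against TGF-β 7 were higher in co-culture, led by Fosl2 (0.72 ± 0.09), and 4 lower, led by Pparg (-2.14 ± 0.13). Mitf, the partner of NFATc1 named above, was named after its values were seen, with a fall of 1.01 ± 0.10 in co-culture (limma adjusted p = 1.91e-06) and -0.29 ± 0.10 with TGF-β (0.148).

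Receptors and adaptors gave 5 higher and 5 lower of 17 in co-culture (median -0.03). Itgav, the αv integrin chain with which osteoclasts grip bone, rose by 0.87 ± 0.10 (limma adjusted p = 1.47e-05) and Pira2, an activating immunoglobulin-like receptor with close paralogs, fell by 1.83 ± 0.12 (6.48e-08). With TGF-β limma called 0 of the 17 (5 at an unadjusted p under 0.05), edgeR 0 and DESeq2 2. Kinases and transducers gave 5 higher and 6 lower of 21, among them Tab2 (0.53 ± 0.08), an adaptor of the kinase TAK1, and Ikbkg (-0.81 ± 0.07), the regulatory subunit of the NF-κB kinase. With TGF-β 3 of these were lower and none higher, led by the ubiquitin ligase Cblb (-0.59 ± 0.11, limma adjusted p = 0.0115). The Cblb call held under 15 of 18 alternatives (adjusted p up to 0.103) and was lost without monoculture 2, without TGF-β 1 and in limma without its trend and robust options.

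Genes listed here as inhibitors of osteoclast formation gave 6 higher and 5 lower of 16 in co-culture (median 0.19). What each listed gene does to osteoclast formation in these cells was not tested. Socs3, which limits cytokine signaling, rose by 4.11 ± 0.17 (limma adjusted p = 7.54e-10), and Rbpj, the Notch pathway factor that restrains osteoclast formation, fell by 0.71 ± 0.09 (2.85e-05). With TGF-β limma called 0 of the 16 (2 at an unadjusted p under 0.05), edgeR 0 and DESeq2 1. Ligands and coupling factors gave 6 higher and 4 lower of 15, but 5 of the 15 were tested through co-culture alone. Il1b, among these 5, was at 0 reads in all monoculture libraries and reached a mean of 263 in co-culture. That Il1b was called is in part set by the filter. Calcrl, which forms the receptor for the neuropeptide CGRP with Ramp1, fell by 1.95 ± 0.11 (limma adjusted p = 1.31e-08). With TGF-β Calcrl fell by 0.66 ± 0.11 (limma adjusted p = 0.00588, or 0.0754 without the trend and robust options) and Ramp1 rose by 1.31 ± 0.21 (0.00396).

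**Figure D4:**
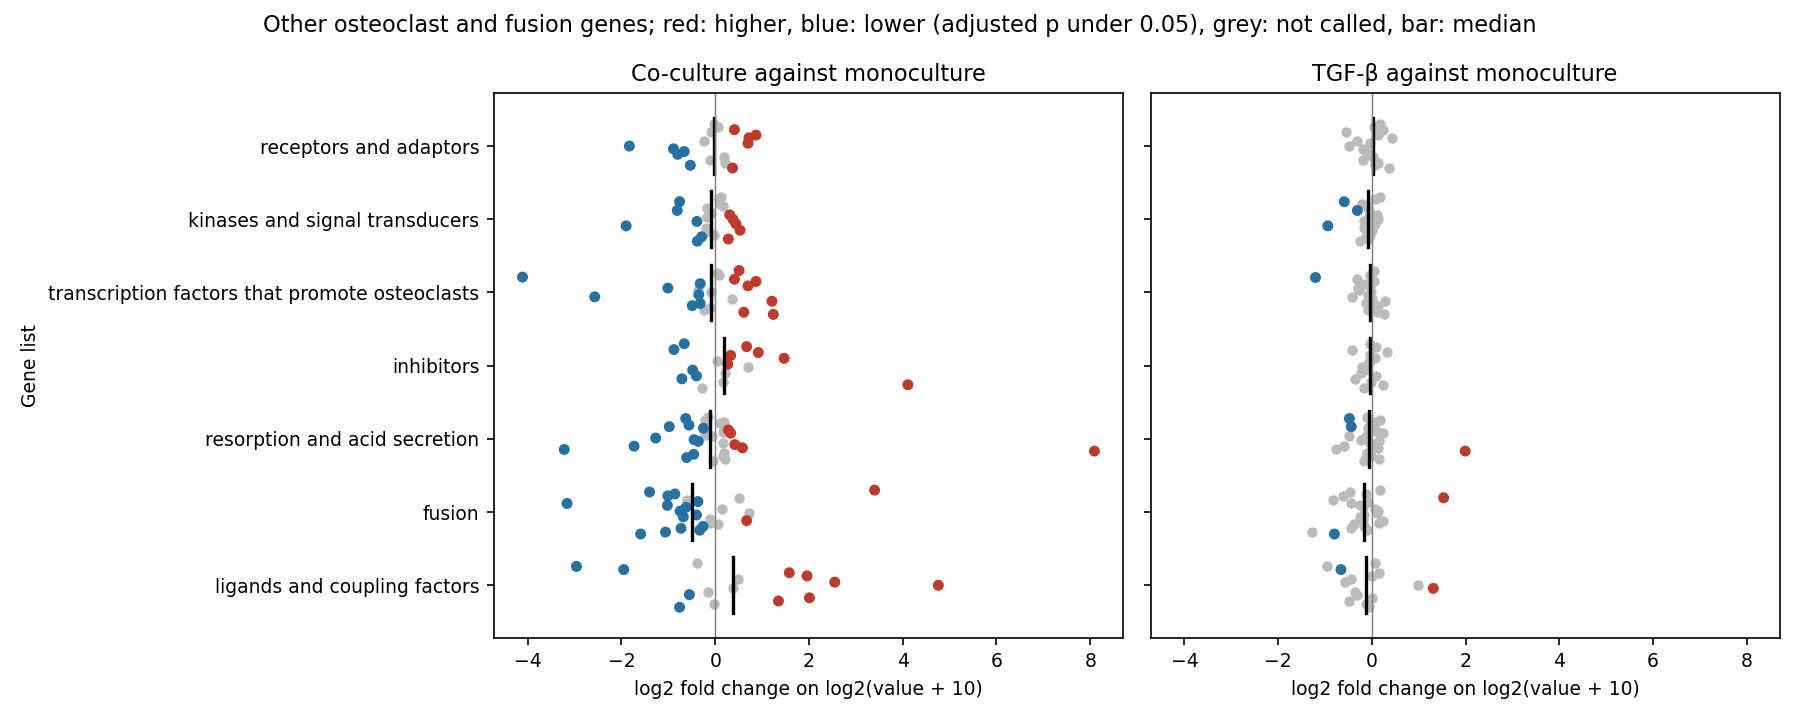
Log2 fold change on log2(value + 10) of the 142 tested genes of the 7 lists (rows), for co-culture (left) and TGF-β (right) against monoculture; each point is a gene, red if called higher, blue if called lower and grey if not called, and the black bar is the median. In co-culture 15 of 24 fusion genes are blue (15.0% of all tested genes were called lower), and with TGF-β most points are grey (2.52% of all tested genes were called).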

How the data were processed

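Libraries (9) were made from 10 ng of RNA each. Per the labels, the SMART-Seq kit used keeps strand. The submitters' processing notes name bcl2fastq 2.20, STAR 2.7.3, DESeq2 1.24.0, R 3.6.1 and build mm10, with no roles. Which program counted reads, with which annotation, and whether it used strand, is not given in the sources used here. The deposited table holds a signal value per gene and library. In each column 100% of values were whole multiples of a single step (within 0.05), so the values were read as counts that the authors divided by 1 size factor per library, and reads were recovered from them.

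limma 3.58.1 (R 4.3.3; trend and robust empirical Bayes) was fitted to log2(value + 10) for the 16328 of 24607 genes that reached 10 in 3 or more libraries, all 9 libraries in 1 fit with the group as factor; the fit was tested on simulated data. Alternatives were edgeR 4.0.16 and DESeq2 1.42.0 on recovered reads (edgeR called 2427 genes higher and 2520 lower in co-culture against monoculture), a pseudocount of 1, no filter, a filter at 50, TMM scaling, plain empirical Bayes, 2 groups only, the replicate number as a block, and leaving out each library. The median log2 fold change of all genes moved by under 0.1 with scaling.

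Members and lists were chosen with earlier results of these data known. Besides the 10 members, the text names for each list and comparison the called gene of smallest p in each direction, and the 2 genes most correlated with each of the 3 most abundant members. All 10 identifiers matched GENCODE M21. Levels per kb use the longest annotated transcript. Exact permutation tests of 3 against 3 cannot go below p = 0.10 and were not used.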

Additional observations from a re-analysis of the deposited data

How the results depend on the processing

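The 5 falls and 3 rises of tested genes in co-culture against monoculture kept their direction and call under every alternative in which the gene was tested; Ocstamp could not be tested with the stricter filter. Counts without single libraries were 5 and 3 throughout. The calls with TGF-β were fragile: in place of 2 lower genes edgeR and limma with neither trend nor robust gave 1, a fit of the 2 groups alone gave 4, and leaving out single libraries gave 0 to 4. Small differences with TGF-β that were not called changed sign without single libraries, Acp5 at -0.12 without TGF-β 2 (-0.12 to 0.24 over the libraries) and Nfatc1 at -0.03 without monoculture 3 and -0.06 without TGF-β 3 (-0.06 to 0.11).

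Over all genes, TGF-β against monoculture gave 185 higher and 227 lower, but 423 and 486 in DESeq2 and 79 and 74 with neither trend nor robust. Without single libraries the ranges were 92 to 496 and 73 to 439. The count higher in co-culture was 1694 to 2825 against monoculture and 1337 to 2450 against TGF-β, lowest without co-culture 1. The cause was not tested.

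Whether replicate numbers mark the same mouse is not stated. Deviations of same-numbered libraries correlated at -0.147 to 0.372 and not every library correlated best with its own number, so the numbers were not used as pairs. With the replicate block TGF-β gave 3 lower genes in place of 2 (Ctsk lost, adjusted p = 0.0636; Dcstamp and Mmp9 gained, 0.0308 and 0.0147), with 189 higher and 208 lower over all genes. With TGF-β Ocstamp, Oscar and Calcr had 0 to 7 reads in libraries of 46.8 to 151.6 M reads, which limits what can be said of them there.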
